A study of Homo sapiens with 16 samples.

Results

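The proteasome is the large protease that degrades ubiquitin-tagged proteins in the cytosol and nucleus, and its genes were followed here through all 16 RNA-seq libraries of a breast cancer cell line treated with an alkylating agent and a kinase inhibitor. Members were the gene rows whose symbol starts with PSMA, PSMB, PSMC, PSMD, PSME or PSMG followed directly by a digit, which selected 48 of the 23228 gene rows. Of these, 47 encode subunits, activators or assembly factors of the proteasome. The remaining row, PSMC3IP, encodes a meiotic and homologous recombination cofactor that shares the prefix and is described apart. PSMA8, the testis form of an alpha subunit, and PSMB11, the thymus form of a beta subunit, had 0 reads in all libraries, so 45 of the 47 genes were tested.

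The cells were MDA-MB-231, an established human triple-negative breast cancer line, grown in sub-confluent dishes. Each of the 8 groups had 2 libraries from separate experiments, made from total RNA. The groups were DMSO vehicle, MMS, sorafenib at 1 µM, and a combination of sorafenib for 12 h followed by MMS, each harvested at 8 and 24 h, with the combination timed from the addition of MMS. MMS (methyl methanesulfonate) methylates DNA bases, and sorafenib inhibits RAF and several receptor tyrosine kinases. For MMS, 40 µg/mL stands in the series text and 40 µM in the labels of the samples, so the dose is uncertain. All results are from 1 cell line, and RNA, not protein or proteasome activity, was measured.

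As background, the 20S core is a barrel of stacked rings. The outer rings are built of the alpha subunits PSMA1 to PSMA7 and gate entry, and the inner rings are built of the beta subunits PSMB1 to PSMB7, of which PSMB5, PSMB6 and PSMB7 carry the proteolytic sites. The 19S regulatory particle caps the core: its ATPases (PSMC1 to PSMC6) unfold and thread substrates, and its non-ATPase subunits (PSMD genes) bind and deubiquitinate them. In cells exposed to interferon, PSMB8, PSMB9 and PSMB10 replace the catalytic beta subunits and form the immunoproteasome, which favours peptides for MHC class I. PSMG1 to PSMG4 chaperone core assembly, PSMD5, PSMD9 and PSMD10 chaperone assembly of the ATPase ring, and PSME1 to PSME4 encode alternative caps. When proteasome capacity falls short, the transcription factor NRF1 (NFE2L1) is known to raise proteasome genes together through antioxidant response elements.

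Counts assigned to genes ranged from 16774156 to 26448212 per library, and between 29.5 and 31.5% of the reads listed in each file aligned to more than 1 place and were not counted for any gene. The line's markers VIM, CD44, AXL, CAV1 and MSN together made up 4391 to 6701 CPM (reads scaled to the library's summed gene reads), while ESR1 reached at most 0.224 CPM and PGR at most 0.674 CPM, where the line is known to lack both receptors. The other luminal epithelial markers listed were higher. KRT19 was at 94.7 to 302 CPM, EPCAM at most 19.3, GATA3 at most 10.7 and CDH1 at most 9.34. Markers of leukocytes, endothelium and fibroblasts were low in all libraries, at 1.31 to 14.7 CPM summed over 5 leukocyte genes, 0.531 to 8.16 CPM over 3 endothelial genes and 5.34 to 18.8 CPM over 3 fibroblast genes. With 2 libraries a group, differences were tested with edgeR's quasi-likelihood test on all 13948 genes that passed its filter on low counts, with the Benjamini-Hochberg adjustment over all of them and a threshold of 0.05. Below, log2 changes are from that fit with their standard error (SE), and levels are CPM of the summed gene rows.

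Per kb of exon, the core genes were the most abundant class by median. Exon length was the union over all basic transcripts of a gene, whether or not these cells use them. The ranking of genes and classes per kb depends on these lengths. The median over the 7 constitutive beta genes was 180.3 CPM per kb and over the 7 alpha genes 115, against 93.7 for the 11 non-ATPase genes, 77.7 for the 6 ATPases, 66.4 for the 4 activators, 35.4 for the 7 assembly chaperones and 23.7 for the 3 immunoproteasome genes (means of 16 libraries, exon lengths from GENCODE v29). PSMD2, a scaffold subunit of the 19S base, was the most abundant member at 302 CPM per kb, followed by PSMB4 at 273 and PSMA7 at 258. PSMG4, the partner of PSMG3 in the chaperone pair that starts the alpha ring, was at 3.31 CPM per kb and PSMG3 at 22.6. Their exon lengths were 5816 and 1960 bases, and without division by length they were at 19.3 and 44.2 CPM. PSMC1 stood apart from its class: this ATPase subunit is needed in equal number to its 5 neighbours in the ring but had 1.04 CPM per kb, where the other ATPases had 30.9 to 182. The annotation names 13 pseudogene copies of PSMC1, and reads that fit several places were not counted. Their part in the low PSMC1 value was not tested, and PSMC1 changes rest on 60 to 137 reads per library.

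**Figure D1:**
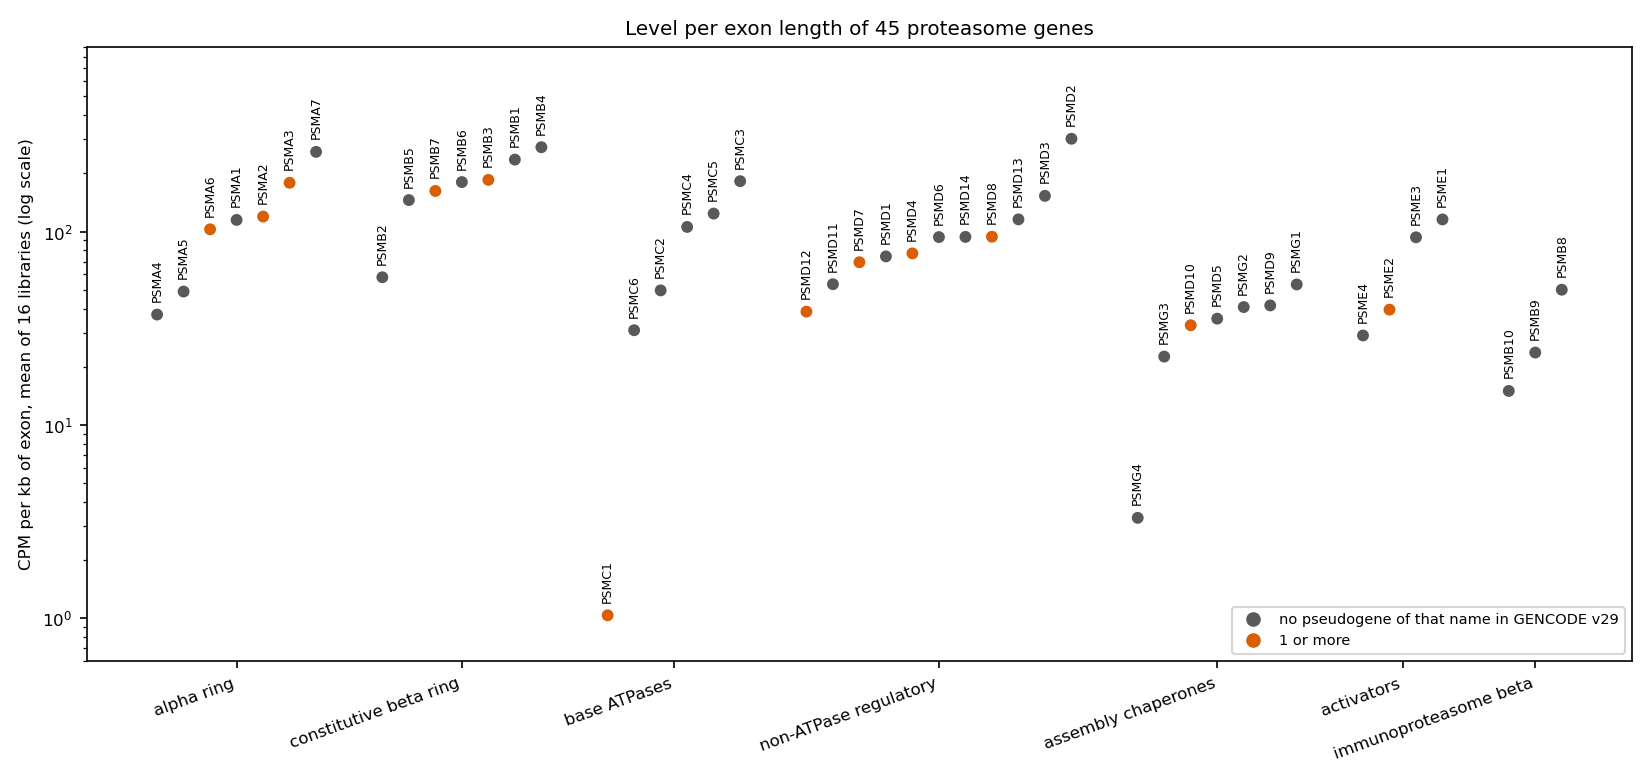
Mean level of each of 45 proteasome genes over 16 libraries, in CPM per kb of exon on a log axis, grouped by class, each point 1 gene and orange where GENCODE v29 names a pseudogene copy. Core subunits lie mostly above 100, assembly chaperones and immunoproteasome genes below 60, and PSMC1 lies far under the other ATPases.

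Summed over the 47 genes, proteasome transcripts took 8252 and 7883 CPM in DMSO at 8 h and 8372 and 8062 CPM with MMS. At 24 h the same sum was 8438 and 8473 CPM in DMSO, 9940.2 and 9611 with MMS, 7703 and 8063 with sorafenib and 9698 and 9822 with the combination. The 4 libraries that received MMS and were harvested at 24 h thus lay above both DMSO libraries, and the pair with sorafenib alone lay below them, while at 8 h the MMS and DMSO pairs overlapped. Mean sums at 24 h were 1.16 times DMSO with MMS (9776 ± 233 against 8455 ± 25.1 CPM, SD, n = 2) and 1.15 times with the combination. The size of that difference depended on the scaling, since trimmed-mean (TMM) library sizes gave mean sums of 9397 CPM with MMS, 9381 with the combination and 8425 in DMSO. In bulk RNA, a change in the number of cells expressing a gene and a change in RNA per cell cannot be told apart.

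The classes did not share 1 pattern at 24 h. With MMS the summed CPM was 1.21 times DMSO for the ATPases, 1.20 times for the non-ATPase subunits, 1.19 times for the assembly chaperones and 1.17 times for the activators. It was 1.13 times DMSO for the constitutive beta ring, 1.08 times for the alpha ring and 0.827 times for the immunoproteasome genes. The combination gave 1.19, 1.20, 1.18, 1.25, 1.12, 1.05 and 0.918 times DMSO for the same classes in that order. These sums carry no test, and the abundant members weigh most in them. The activator sums rested on PSME3, the 1 activator with a positive log2 change at 24 h. The other 3 had negative log2 changes with MMS and with the combination (class medians -0.16 and -0.05).

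**Figure D2:**
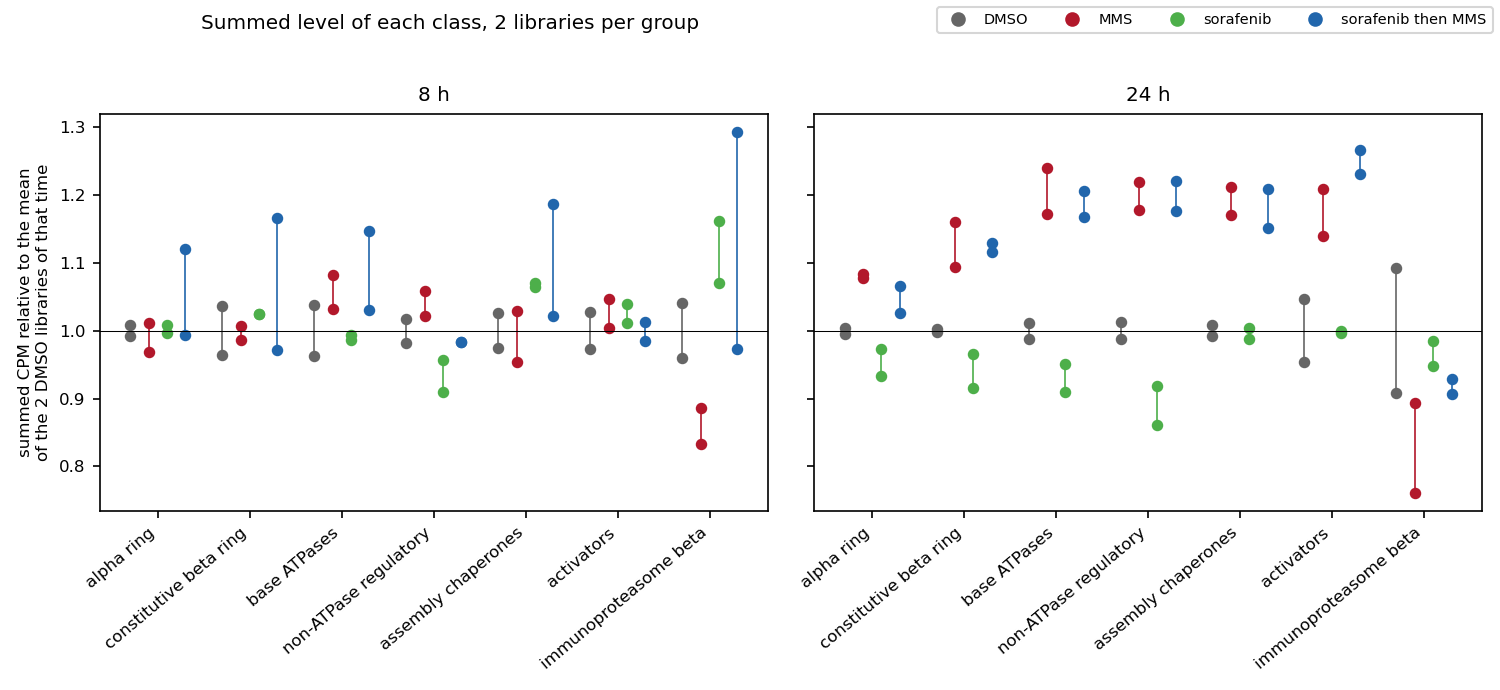
Summed CPM of each class in every library, divided by the mean of the 2 DMSO libraries of the same time, with lines joining the 2 libraries of a group. At 24 h the MMS and combination libraries lie above DMSO for every class, both core rings included, except the immunoproteasome genes. Those lie below DMSO with MMS and overlap it with the combination. The activator sum there rests on PSME3.

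MMS changed 4 proteasome genes at 8 h and 14 at 24 h. At 8 h, 3 of 45 rose (PSMC2, PSMC6 and PSMD12) and 1 fell (PSMD10), whereas 14.5% of all tested genes rose and 12% fell, 26.5% in either direction. At 24 h, 10 rose and 4 fell, against 15.2% and 16.3% of all genes, 31.5% in either direction. The 14 of 45 members called at 24 h were thus close to the 31.5% of all genes, so their number is no result about the members. Of the members 22.2% rose, above the share of all genes, and 8.89% fell, below it, a split that was not tested. The member shares at 8 h, 6.67% that rose and 2.22% that fell, were both below those of all genes. The median log2 change of the 45 members was 0.05 at 8 h and 0.09 at 24 h, beside medians of 0.00 over all genes at both times. Counting libraries rather than tests, 28 of 45 members had both MMS libraries above both DMSO libraries at 24 h, where 36.3% of all genes did, and 5 had both below (28% of all genes). On TMM-scaled sizes these counts were 22 (31.8% of all genes) and 7 (31.7%). At 8 h, 11 members had both MMS libraries above DMSO and 7 both below, beside 28.6% and 33.4% of all genes.

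**Figure D3:**
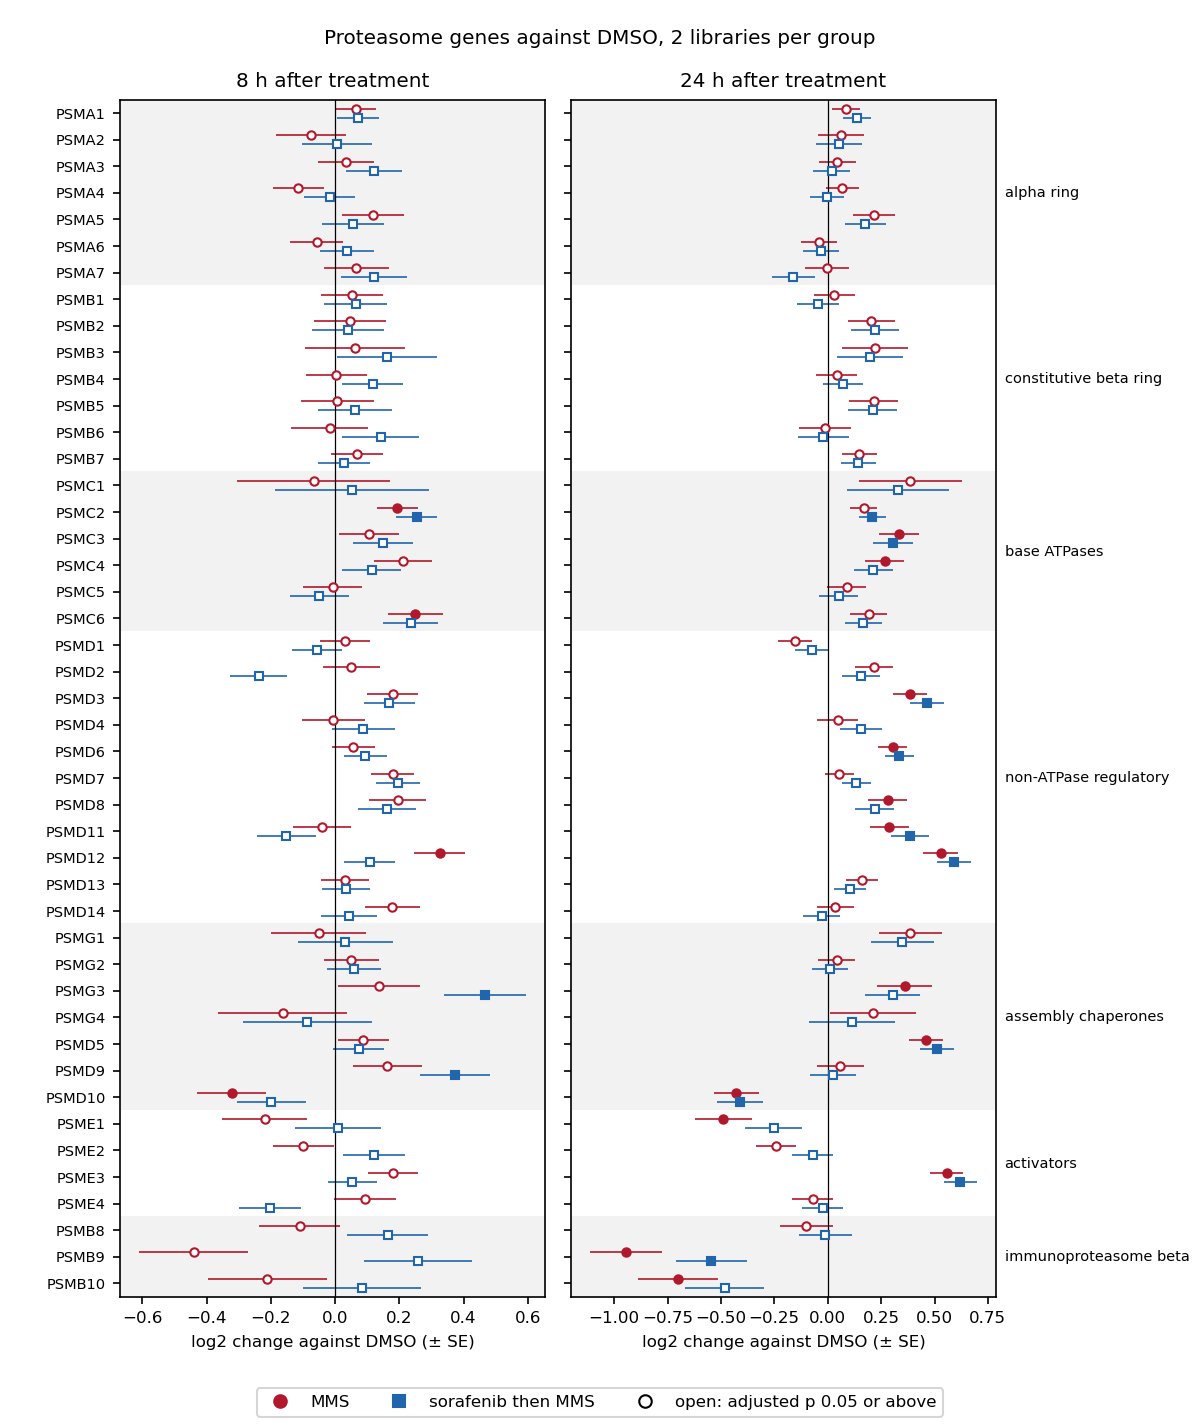
Log2 change of each proteasome gene against DMSO of the same time (points, with bars of 1 SE) for MMS (circles) and the combination (squares), filled where the adjusted p of edgeR's quasi-likelihood test was under 0.05. At 24 h the filled points on the right are mainly 19S genes with PSMD5, PSMG3 and PSME3, and those on the left are PSMB9, PSMB10, PSMD10 and PSME1.

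The fit was made without pairing, but the libraries' titles begin in 2 ways, once in each group, and libraries with the same beginning deviated together. With that beginning as a replicate block, edgeR called 10 members at 8 h (7 higher, 3 lower), where it called 43.3% of all genes, and 21 at 24 h (16 higher, 5 lower), where it called 48.3%. DESeq2 called 3 members at 8 h and 16 at 24 h, beside 29.7% and 32% of all genes. Those added by the block at 8 h were PSMB9 (-0.44 ± 0.15, adjusted p = 0.0249), PSME1 (-0.22 ± 0.07, adjusted p = 0.0188), PSMC4 (0.21 ± 0.08, adjusted p = 0.0425), PSMD7 (0.18 ± 0.07, adjusted p = 0.0394), PSMD14 (0.18 ± 0.06, adjusted p = 0.0297) and PSME3 (0.18 ± 0.07, adjusted p = 0.0483). Those added at 24 h were PSMC2 (0.17 ± 0.06, adjusted p = 0.0388), PSMC6 (0.19 ± 0.08, adjusted p = 0.0449), PSMD2 (0.22 ± 0.08, adjusted p = 0.0283) and 4 core, chaperone and activator genes given below. The 8 h calls were the less steady ones. Without DMSO replicate 1 or MMS replicate 1, 0 of 45 members passed at 8 h, and without DMSO replicate 2 or MMS replicate 2, 2 and 1 passed.

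No gene of the 20S core passed in the fit of all libraries, where MMS changed 26.5% of all genes at 8 h and 31.5% at 24 h. Of the 14 alpha and constitutive beta genes, 0 passed the edgeR test in any of the 10 comparisons, 0 passed DESeq2, and at an unadjusted p under 0.05 there was 1 for MMS at 24 h (PSMA5, higher), 1 for sorafenib at 24 h (PSMB7, lower) and 1 for DMSO over time (PSMB4, higher). With the replicate block, PSMA5 (0.22 ± 0.06, adjusted p = 0.00981) and PSMB2 (0.21 ± 0.08, adjusted p = 0.0396) passed at 24 h of MMS. Across the 14 genes the log2 change with MMS ran from -0.11 to 0.12 at 8 h and from -0.04 to 0.22 at 24 h, and the 95% intervals at 24 h reached from -0.27 to 0.56, so changes of that size cannot be set aside for single genes.

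Among alpha ring genes, PSMA5 at 8 h stood at 216 and 205 CPM in DMSO, 234 and 212 with MMS, 203 and 188 with sorafenib and 236 and 205 with the combination. By 24 h PSMA5 stood at 225 and 203 CPM in DMSO, 267 and 249 with MMS, 203 and 205 with sorafenib and 258 and 244 with the combination. Its MMS and combination libraries lay above both DMSO libraries at 24 h but overlapped them at 8 h, with log2 changes for MMS of 0.12 and then 0.22 ± 0.10, adjusted p = 0.108. PSMA1 at 8 h was at 246 and 249 CPM in DMSO, 260.5 and 243 with MMS, 238 and 240.4 with sorafenib and 269.6 and 254 with the combination. By 24 h PSMA1 was at 254 and 253 CPM in DMSO, 272 and 285 with MMS, 239 and 246 with sorafenib and 295 and 283 with the combination. This subunit showed the same order at 24 h on a smaller scale (0.08 ± 0.06, adjusted p = 0.352). PSMA4 at 8 h measured 168 and 163 CPM in DMSO, 156 and 143 with MMS, 171 and 170.2 with sorafenib and 176 and 155 with the combination. By 24 h PSMA4 measured 179 and 182 CPM in DMSO, 194 and 198 with MMS, 174 and 177 with sorafenib and 195 and 178 with the combination. PSMA4 libraries with MMS were below DMSO at 8 h and above it at 24 h, and neither difference passed (-0.11 and 0.07, adjusted p = 0.332 and 0.547).

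In the beta ring, the chymotrypsin-like subunit PSMB5 at 8 h stood at 205 and 176 CPM in DMSO, 192 and 182 with MMS, 199 and 197 with sorafenib and 224 and 178 with the combination. By 24 h PSMB5 stood at 202 and 222 CPM in DMSO, 267 and 243 with MMS, 199 and 214 with sorafenib and 256 and 253 with the combination. All 4 MMS-exposed libraries exceeded DMSO at 24 h, yet the MMS change of 0.22 ± 0.11, adjusted p = 0.176 did not pass. PSMB2 at 8 h was at 277 and 245 CPM in DMSO, 264 and 262 with MMS, 257 and 261 with sorafenib and 290.3 and 251 with the combination. By 24 h PSMB2 was at 302 and 243 CPM in DMSO, 341 and 310.3 with MMS, 267 and 267 with sorafenib and 330.5 and 329 with the combination. Its DMSO libraries at 24 h lay far apart, and the MMS change was 0.20 ± 0.11, adjusted p = 0.188. Without DMSO replicate 1 at 24 h it passed (0.37, adjusted p = 0.0418), and so did the change with the combination (0.39, adjusted p = 0.0318). The trypsin-like subunit PSMB7 at 8 h measured 149 and 143 CPM in DMSO, 152 and 147 with MMS, 141 and 149 with sorafenib and 157 and 143 with the combination. By 24 h PSMB7 measured 164 and 162 CPM in DMSO, 194 and 181 with MMS, 135 and 152 with sorafenib and 184 and 190.0 with the combination. With sorafenib alone PSMB7 was below both DMSO libraries at 24 h (-0.20 ± 0.08, adjusted p = 0.476), the core gene with the smallest p in that comparison. PSMB1 at 8 h was 201 and 212 CPM in DMSO, 206 and 212 with MMS, 204 and 222 with sorafenib and 223 and 213 with the combination. By 24 h PSMB1 was 206 and 247 CPM in DMSO, 221 and 259.7 with MMS, 196 and 218 with sorafenib and 217 and 238 with the combination. For PSMB1 every treated pair overlapped the DMSO pair at 24 h.

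The 6 ATPases of the 19S base included 2 of the 3 members that rose at 8 h, where 14.5% of all genes rose. PSMC2 at 8 h stood at 128 and 132 CPM in DMSO, 145 and 145 with MMS, 137 and 143 with sorafenib and 158 and 155 with the combination. By 24 h PSMC2 stood at 148 and 149 CPM in DMSO, 173 and 173 with MMS, 141 and 152 with sorafenib and 173 and 183 with the combination. MMS and combination libraries exceeded DMSO at both times, and the log2 change with MMS was 0.19 ± 0.06, adjusted p = 0.0404 at 8 h and 0.17 ± 0.06, adjusted p = 0.062 at 24 h. The PSMC2 call at 8 h was lost in 8 of 10 alternatives, among them the omission of any 1 of the 4 libraries compared (0.17 to 0.20 over all 10). It was kept with the replicate block and in DESeq2. PSMC6 at 8 h was at 59.4 and 58.9 CPM in DMSO, 72.4 and 64.6 with MMS, 62.0 and 58.2 with sorafenib and 72.8 and 67.7 with the combination. By 24 h PSMC6 was at 66.4 and 64.7 CPM in DMSO, 73.1 and 82.2 with MMS, 64.0 and 62.5 with sorafenib and 79.3 and 73.2 with the combination. Its change was 0.25 ± 0.09, adjusted p = 0.0498 at 8 h. That call was lost in 9 of 10 alternatives and kept only with the replicate block. The losses included DESeq2 and the omission of DMSO replicate 1 (0.26), MMS replicate 1 (0.16), DMSO replicate 2 (0.22) or MMS replicate 2 (0.31).

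PSMC3, which contacts ubiquitin, at 8 h measured 270.2 and 244 CPM in DMSO, 280.3 and 259 with MMS, 261 and 249 with sorafenib and 304 and 272 with the combination. By 24 h PSMC3 measured 268 and 277 CPM in DMSO, 375 and 337 with MMS, 248 and 262 with sorafenib and 345 and 353 with the combination. Both MMS-exposed pairs stood clear of DMSO at 24 h, where PSMC3 rose by 0.33 ± 0.09, adjusted p = 0.0179. PSMC4 at 8 h stood at 155 and 143 CPM in DMSO, 167 and 168 with MMS, 139 and 145 with sorafenib and 173 and 151 with the combination. By 24 h PSMC4 stood at 170.4 and 162 CPM in DMSO, 214 and 201 with MMS, 146 and 154 with sorafenib and 189 and 212 with the combination. PSMC4 rose by 0.27 ± 0.09, adjusted p = 0.0422 with MMS at 24 h, where its libraries were separate from DMSO at both times. The PSMC3 call at 24 h was lost without DMSO replicate 1 (0.31, adjusted p = 0.0829), MMS replicate 1 (0.25, adjusted p = 0.141) or DMSO replicate 2 (0.36, adjusted p = 0.0557), and the PSMC4 call without DMSO replicate 1 (0.31, adjusted p = 0.0769), MMS replicate 1 (0.22, adjusted p = 0.213) or DMSO replicate 2 (0.24, adjusted p = 0.169). PSMC1 and PSMC5 did not pass in any comparison.

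Of the 11 non-ATPase subunits, 1 rose at 8 h and 5 rose at 24 h of MMS (PSMD3, PSMD6, PSMD8, PSMD11 and PSMD12), beside 14.5% and 15.2% of all genes, and their median log2 change was 0.06 and then 0.22. PSMD12, a scaffold subunit of the lid, at 8 h stood at 152 and 168 CPM in DMSO, 204 and 187 with MMS, 149.5 and 161 with sorafenib and 167 and 181 with the combination. By 24 h PSMD12 stood at 142 and 129 CPM in DMSO, 197 and 209 with MMS, 122 and 127 with sorafenib and 210.4 and 212 with the combination. MMS libraries exceeded DMSO at both times, the combination did so at 24 h, and the sorafenib pair lay below DMSO at 24 h. PSMD12 rose by 0.33 ± 0.08, adjusted p = 0.00933 at 8 h and by 0.53 ± 0.08, adjusted p = 0.000534 at 24 h. The 24 h call was kept in each of the 10 alternative analyses, from 0.47 to 0.60, but that at 8 h was lost without DMSO replicate 1 (0.26, adjusted p = 0.105) or MMS replicate 1 (0.26, adjusted p = 0.0927). PSMD12 was also the member with the widest range among 19S genes, with its highest group mean (211 ± 1.33 CPM, combination at 24 h) at 1.69 times its lowest (125 ± 3.51 CPM, sorafenib at 24 h).

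PSMD3, a lid subunit paired with PSMD12 in sharing a scaffold fold, at 8 h was at 303 and 283 CPM in DMSO, 324 and 323 with MMS, 277 and 286 with sorafenib and 339 and 324 with the combination. By 24 h PSMD3 was at 283 and 313 CPM in DMSO, 408 and 399 with MMS, 274 and 292 with sorafenib and 409 and 445 with the combination. MMS-exposed libraries were above DMSO at both times, and the change with MMS was 0.18 ± 0.08, adjusted p = 0.119 at 8 h and 0.39 ± 0.08, adjusted p = 0.00326 at 24 h. PSMD7, the inactive partner of the deubiquitinase PSMD14, at 8 h measured 131 and 128 CPM in DMSO, 148 and 137 with MMS, 120.4 and 127 with sorafenib and 152 and 147 with the combination. By 24 h PSMD7 measured 133 and 137 CPM in DMSO, 140.4 and 149.9 with MMS, 121 and 126 with sorafenib and 152 and 154 with the combination. MMS and combination libraries lay above DMSO at both times and sorafenib libraries below it, yet neither MMS change passed (adjusted p = 0.0711 and 0.594). The other calls at 24 h were PSMD6 (0.30 ± 0.07, adjusted p = 0.00516), PSMD11 (0.29 ± 0.09, adjusted p = 0.0308) and PSMD8 (0.28 ± 0.09, adjusted p = 0.0325). PSMD11 lost its call without DMSO replicate 1 (0.32, adjusted p = 0.0667), MMS replicate 1 (0.29, adjusted p = 0.0933) or DMSO replicate 2 (0.27, adjusted p = 0.107), and PSMD8 without DMSO replicate 1 (0.21, adjusted p = 0.183) or MMS replicate 1 (0.25, adjusted p = 0.145). PSMD1, the other large scaffold of the base, varied least of the 45 members, with a highest group mean 1.09 times its lowest.

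The promoters of the 19S and assembly genes that rose are shown because the antioxidant response element is the known route of joint proteasome induction. Windows of 300 bases, from 250 before to 50 after the start site, came from RefSeq (GRCh38.p14, which is not the hg19 build of the count files) and matched 41 of the 47 genes. The core TGACNNNGC, searched on both strands, lay in a window of 15 of 41 members (36.6%) and of 16.1% of 27305 genes. The 27305 are all genes with a window, expressed here or not, and were not matched to the members in base composition. Enrichment was not tested. By outcome at 24 h of MMS the core was found in 4 of 9 genes that rose, 2 of 4 that fell and 9 of 26 that did not pass. A match is a description of letters and not a measured binding site. For the 4 genes that rose, 1 match each is printed with 10 bases on either side, read 5′ to 3′ on the strand of the match, with the 9 matching bases in capitals. The stretches lie at chr17:67366724-67366752 (PSMD12, minus strand), chr17:39980760-39980788 (PSMD3, plus) and chr9:120843038-120843066 (PSMD5, minus), all upstream of the start site, and at chr19:39971182-39971210 (PSMC4, minus), downstream of it. PSMD3 holds a second match downstream of its start site.
PSMD12: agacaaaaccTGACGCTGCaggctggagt
PSMD3: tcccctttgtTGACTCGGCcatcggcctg
PSMD5: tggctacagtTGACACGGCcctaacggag
PSMC4: tcctccatagTGACCAAGCcggcctctgt
The 250 bases before the PSMD12 start site (chr17:67366578-67366827, minus strand) follow in full, since PSMD12 rose at both times, with the same 9 bases in capitals.
PSMD12 upstream: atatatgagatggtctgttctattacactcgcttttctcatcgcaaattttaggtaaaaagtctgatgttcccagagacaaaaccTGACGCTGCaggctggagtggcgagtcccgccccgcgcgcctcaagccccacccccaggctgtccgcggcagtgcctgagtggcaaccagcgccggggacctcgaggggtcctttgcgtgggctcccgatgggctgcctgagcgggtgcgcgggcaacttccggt

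Of the 7 assembly chaperones, 2 rose (PSMD5 and PSMG3) and 1 fell (PSMD10) at 24 h of MMS, beside 15.2% and 16.3% of all genes. At 8 h PSMD10 fell, 1 of 7 beside 12% of all genes. PSMD5, which holds ATPase subunits before they join the base, at 8 h stood at 109 and 106 CPM in DMSO, 115 and 108 with MMS, 119 and 118 with sorafenib and 113 and 115 with the combination. By 24 h PSMD5 stood at 110.4 and 101 CPM in DMSO, 155 and 146 with MMS, 115 and 109.8 with sorafenib and 159 and 153 with the combination. The MMS-exposed pairs were far above DMSO at 24 h, and PSMD5 rose by 0.46 ± 0.08, adjusted p = 0.00116, a call kept in each of the 10 alternatives. PSMD10 (gankyrin), the ATPase chaperone that also binds the retinoblastoma protein and MDM2, at 8 h was at 54.5 and 49.9 CPM in DMSO, 43.1 and 38.3 with MMS, 53.8 and 53.8 with sorafenib and 50.1 and 41.7 with the combination. By 24 h PSMD10 was at 62.5 and 56.4 CPM in DMSO, 46.1 and 45.7 with MMS, 62.4 and 59.96 with sorafenib and 48.4 and 44.3 with the combination. MMS libraries lay below DMSO at both times and the combination did so at 24 h, with log2 changes for MMS of -0.32 ± 0.11, adjusted p = 0.0428 and -0.43 ± 0.11, adjusted p = 0.00992. The call at 8 h was lost without DMSO replicate 1 (-0.25), MMS replicate 1 (-0.42) or MMS replicate 2 (-0.26). It was also lost without the filter on low counts and in a fit of the compared groups alone. The call at 24 h was lost without DMSO replicate 1 (-0.35), MMS replicate 1 (-0.43) or MMS replicate 2 (-0.37). PSMD5 and PSMD10 thus moved in opposite directions at 24 h. PSMD9, the remaining one, at 8 h measured 106 and 98.4 CPM in DMSO, 111 and 112 with MMS, 111 and 114 with sorafenib and 146 and 120.3 with the combination. By 24 h PSMD9 measured 103 and 124 CPM in DMSO, 123 and 124 with MMS, 100.5 and 115 with sorafenib and 117 and 123 with the combination. It did not pass with MMS (adjusted p = 0.312 and 0.721).

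Of the core chaperones, PSMG3 at 8 h stood at 36.2 and 39.99 CPM in DMSO, 41.4 and 40.2 with MMS, 41.7 and 45.2 with sorafenib and 59.8 and 46.3 with the combination. By 24 h PSMG3 stood at 35.8 and 42.9 CPM in DMSO, 51.4 and 53.4 with MMS, 32.9 and 40.1 with sorafenib and 49.5 and 51.2 with the combination. PSMG3 rose by 0.36 ± 0.13, adjusted p = 0.0495 with MMS at 24 h, close to the threshold, and lost the call without DMSO replicate 1 (0.24, adjusted p = 0.278), MMS replicate 1 (0.39, adjusted p = 0.116) or MMS replicate 2 (0.39, adjusted p = 0.102). PSMG1 at 8 h was at 119 and 103 CPM in DMSO, 117 and 92.3 with MMS, 119 and 108 with sorafenib and 128 and 102 with the combination. By 24 h PSMG1 was at 107 and 96.7 CPM in DMSO, 146 and 130.0 with MMS, 103 and 97.4 with sorafenib and 145 and 124 with the combination. PSMG1 replicates differed in the same direction in 8 of 8 groups, and its MMS change at 24 h (0.39 ± 0.15, adjusted p = 0.065) passed with the replicate block (0.38 ± 0.07, adjusted p = 0.000284), in DESeq2 (0.39, adjusted p = 0.0455) and without the filter on low counts (0.40, adjusted p = 0.0414). Its partner PSMG2 at 8 h measured 78.2 and 75.0 CPM in DMSO, 79.7 and 74.9 with MMS, 79.6 and 77.0 with sorafenib and 85.9 and 74.9 with the combination. By 24 h PSMG2 measured 81.0 and 78.8 CPM in DMSO, 85.6 and 84.9 with MMS, 81.5 and 80.01 with sorafenib and 87.2 and 79.6 with the combination. PSMG2 did not pass, with log2 changes of 0.05 and 0.04 for MMS (95% interval at 24 h -0.14 to 0.23). PSMG4 at 8 h was 17.1 and 21.7 CPM in DMSO, 14.9 and 18.9 with MMS, 18.1 and 23.7 with sorafenib and 18.8 and 18.0 with the combination. By 24 h PSMG4 was 14.2 and 22.5 CPM in DMSO, 21.0 and 23.1 with MMS, 16.9 and 18.0 with sorafenib and 19.98 and 21.2 with the combination. The groups of this scarce transcript overlapped in each comparison with DMSO.

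Of the 4 activators, PSME3 rose and PSME1 fell with MMS at 24 h, where 15.2% of all genes rose and 16.3% fell. PSME3, the nuclear PA28 gamma cap that supports degradation without ubiquitin, at 8 h stood at 386 and 371 CPM in DMSO, 414 and 421 with MMS, 372 and 389 with sorafenib and 396 and 395 with the combination. By 24 h PSME3 stood at 368 and 336 CPM in DMSO, 552 and 522 with MMS, 333 and 344 with sorafenib and 538 and 585 with the combination. MMS libraries exceeded DMSO at both times and the 24 h pairs by far, with log2 changes of 0.18 ± 0.08, adjusted p = 0.108 and 0.56 ± 0.08, adjusted p = 0.000316. The 24 h call was kept in each of the 10 alternatives (0.50 to 0.65). PSME1, the interferon-inducible PA28 alpha, at 8 h was at 152 and 133 CPM in DMSO, 124 and 114 with MMS, 166 and 139 with sorafenib and 162 and 127 with the combination. By 24 h PSME1 was at 162 and 149 CPM in DMSO, 120.4 and 109 with MMS, 168 and 159.8 with sorafenib and 143 and 127 with the combination. Its MMS libraries lay below DMSO at both times, and PSME1 fell by 0.49 ± 0.13 at 24 h (adjusted p = 0.0155), and the call was lost after omission of DMSO replicate 1 (-0.43, adjusted p = 0.0852) or MMS replicate 2 (-0.37, adjusted p = 0.147).

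PSME2, PA28 beta and the ring partner of PSME1, at 8 h measured 58.5 and 54.3 CPM in DMSO, 53.4 and 49.2 with MMS, 62.9 and 58.4 with sorafenib and 67.1 and 56.6 with the combination. By 24 h PSME2 measured 63.6 and 60.5 CPM in DMSO, 55.1 and 53.7 with MMS, 61.6 and 62.7 with sorafenib and 60.7 and 61.8 with the combination. The MMS pair was below DMSO at both times, and the 24 h change of -0.24 ± 0.10, adjusted p = 0.0724 passed with the replicate block (-0.24 ± 0.08, adjusted p = 0.0168). PSME4, the PA200 cap linked to histone degradation and DNA repair, at 8 h was 214 and 209 CPM in DMSO, 233 and 206 with MMS, 218 and 210.4 with sorafenib and 173 and 197 with the combination. By 24 h PSME4 was 216 and 191 CPM in DMSO, 206 and 195 with MMS, 209.9 and 204 with sorafenib and 209.6 and 205 with the combination. Its MMS and DMSO pairs overlapped at both times (-0.07 ± 0.10, adjusted p = 0.621 at 24 h).

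Of the 3 immunoproteasome genes, PSMB9 and PSMB10 fell with MMS at 24 h and PSMB8 did not pass, where 16.3% of all genes fell. PSMB9 at 8 h stood at 20.1 and 17.5 CPM in DMSO, 12.7 and 14.3 with MMS, 27.7 and 23.6 with sorafenib and 25.2 and 20.2 with the combination. By 24 h PSMB9 stood at 26.5 and 29.2 CPM in DMSO, 12.5 and 17.5 with MMS, 29.5 and 32.7 with sorafenib and 18.3 and 21.4 with the combination. MMS libraries were below DMSO at both times, with log2 changes of -0.44 ± 0.17, adjusted p = 0.074 at 8 h and -0.94 ± 0.17, adjusted p = 0.00145 at 24 h. The latter call was kept in each of the 10 alternatives (-1.16 to -0.72). PSMB10 at 8 h was at 18.3 and 18.0 CPM in DMSO, 14.8 and 15.8 with MMS, 20.7 and 17.4 with sorafenib and 22.2 and 16.6 with the combination. By 24 h PSMB10 was at 18.1 and 26.0 CPM in DMSO, 13.6 and 14.6 with MMS, 20.1 and 23.4 with sorafenib and 17.8 and 14.9 with the combination. The DMSO libraries of PSMB10 differed widely at 24 h, yet both MMS libraries lay below them, and PSMB10 fell by 0.70 ± 0.19 (adjusted p = 0.0133). That call was lost without MMS replicate 1 (-0.65, adjusted p = 0.0864), DMSO replicate 2 (-0.41, adjusted p = 0.167) or MMS replicate 2 (-0.70, adjusted p = 0.0574). PSMB8 at 8 h measured 71.5 and 65.9 CPM in DMSO, 60.5 and 63.6 with MMS, 74.4 and 72.0 with sorafenib and 89.2 and 66.0 with the combination. By 24 h PSMB8 measured 79.4 and 93.8 CPM in DMSO, 77.9 and 89.8 with MMS, 79.8 and 78.4 with sorafenib and 87.7 and 90.5 with the combination. PSMB8 with MMS was below DMSO at 8 h and overlapped it at 24 h (-0.10 ± 0.13, adjusted p = 0.585).

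**Figure D4:**
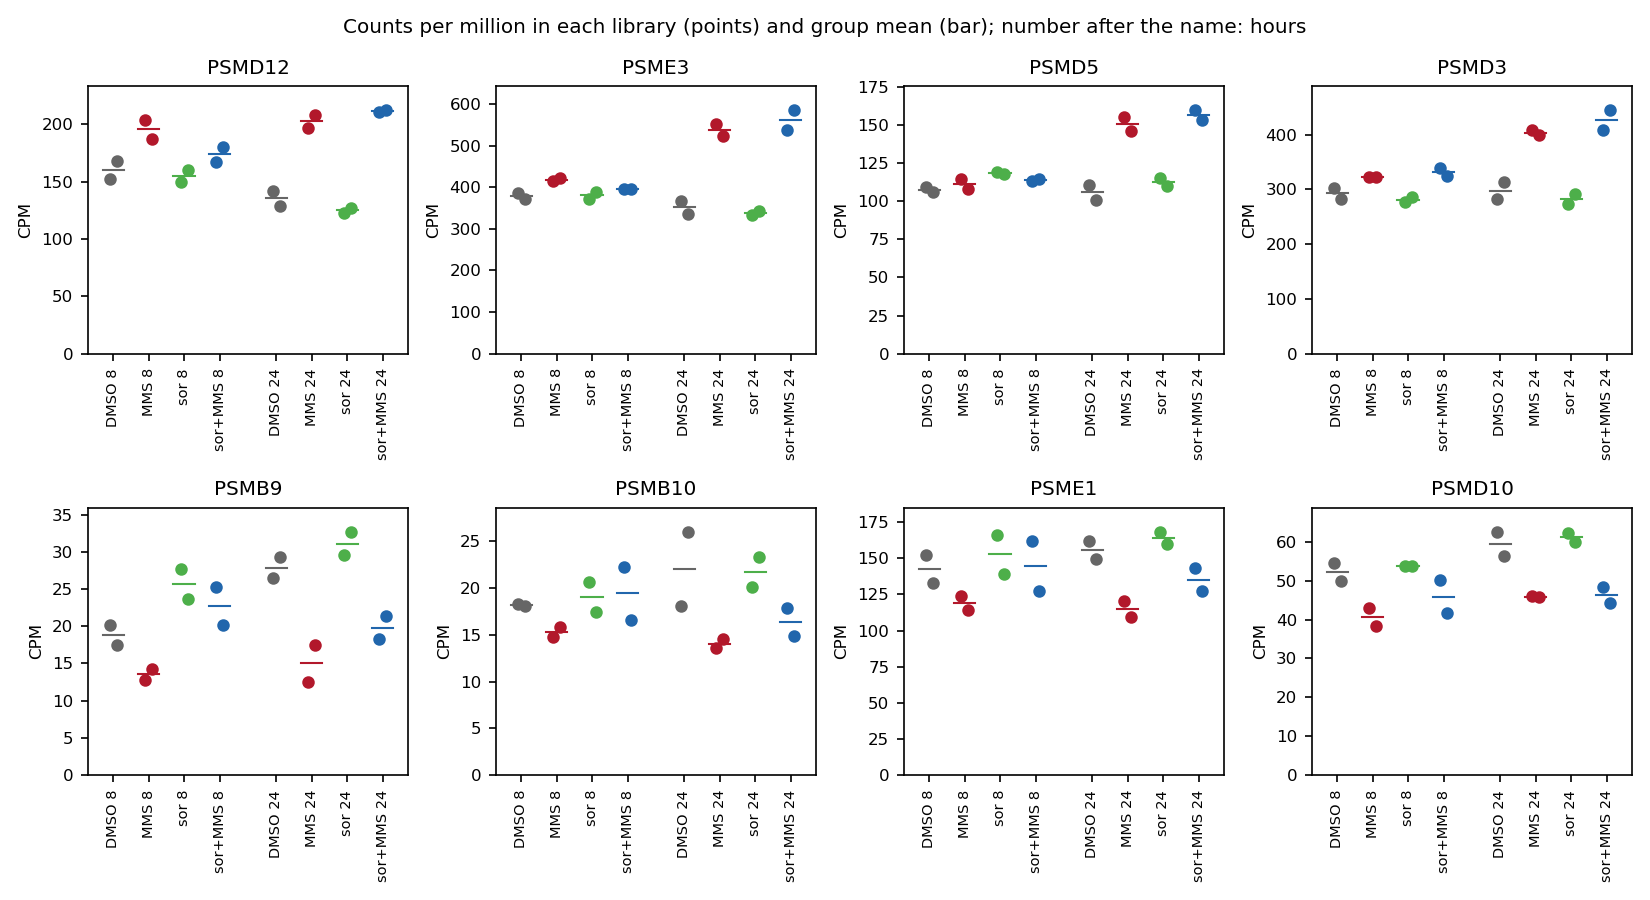
CPM in each library (points) and group mean (bar) for 4 genes that rose with MMS at 24 h (top) and 4 that fell (bottom), with time in hours after the group name and sorafenib shortened to sor. The MMS and combination pairs at 24 h lie above DMSO for PSMD12, PSME3, PSMD5 and PSMD3, and the MMS pair lies below DMSO for PSMB9, PSMB10, PSME1 and PSMD10.

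As a share of the 6 catalytic beta transcripts (PSMB8, PSMB9 and PSMB10 over these plus PSMB5, PSMB6 and PSMB7), the immunoproteasome genes made up 19.2 and 21.0% in DMSO at 24 h, 13.9 and 17.2% with MMS, 21.0 and 20.2% with sorafenib and 16.8 and 17.2% with the combination. At 8 h the shares were 18.0 and 18.1% in DMSO, 15.3 and 16.9% with MMS, 19.9 and 18.8% with sorafenib and 19.6 and 18.2% with the combination. In this share the MMS pair was below DMSO at both times, and the combination pair at 24 h. At 24 h PSMB8, PSMB9 and PSMB10 summed to 123.9 and 149 CPM in DMSO and 104 and 122 with MMS. With the combination they summed to 123.8 and 127 CPM, which overlapped DMSO. PSMB5, PSMB6 and PSMB7 summed to 522 and 562 CPM in DMSO, 643 and 585 with MMS and 615 and 610 with the combination. The lower shares at 24 h thus also reflect higher constitutive levels. Marker lists of other cell types also differed between these groups. For leukocytes, the sum of 5 such genes was 6.20 and 14.7 CPM in DMSO at 24 h, 1.39 and 2.11 with MMS, 5.52 and 9.26 with sorafenib and 1.48 and 1.31 with the combination. At 8 h it was 3.16 and 7.90 CPM in DMSO, 1.63 and 4.04 with MMS, 4.59 and 4.42 with sorafenib and 2.56 and 2.53 with the combination. CD14 made up most of it, and the pan-leukocyte gene PTPRC was at 0.559 and 0.511 CPM in DMSO and 0.116 and 0.129 with MMS at 24 h. The sum of 3 endothelial genes at 24 h was 8.16 and 7.72 CPM in DMSO, 0.927 and 1.42 with MMS, 2.84 and 3.26 with sorafenib and 0.531 and 0.612 with the combination. The sum of 3 fibroblast genes was 13.1 and 14.1 CPM in DMSO and 9.04 and 11.8 with MMS. For 6 luminal genes the sum at 24 h was 195 and 323 CPM in DMSO and 121 and 174 with MMS. KRT19 made up most of that sum, at 175 and 302 CPM in DMSO and 98.3 and 151 with MMS. EPCAM went the other way, at 11.7 and 12.7 CPM in DMSO and 14.3 and 14.9 with MMS. GATA3 overlapped between the pairs, CDH1 was lower with MMS, and ESR1 and PGR were barely detected. The markers of the line itself were also lower, at 5903 and 6364 CPM in DMSO and 4589 and 4921 with MMS. The part of these lists in the result was not tested.

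Of 17 tested genes of the antigen presentation pathway that the immunoproteasome serves, 3 fell and 2 rose with MMS at 8 h, beside 12% and 14.5% of all genes. At 24 h, 5 fell and 0 rose, beside 16.3% and 15.2%. Those that rose at 8 h were the peptide-loading chaperones PDIA3 (0.35 ± 0.08, adjusted p = 0.00495) and CALR (0.31 ± 0.09, adjusted p = 0.0276). IRF1, the interferon-induced activator of PSMB9, fell by 1.16 ± 0.10 at 8 h (adjusted p = 8.56e-06) and by 0.55 ± 0.10 at 24 h (adjusted p = 0.0014). NLRC5, the transactivator of MHC class I genes, changed by -0.62 ± 0.12, adjusted p = 0.00276 and -0.91 ± 0.13, adjusted p = 0.00031. The peptide-trimming ERAP1 (-1.002 ± 0.10, adjusted p = 5.03e-05) and ERAP2 (-0.88 ± 0.13, adjusted p = 0.000577) also fell at 24 h, as did B2M, the light chain of MHC class I (-0.26 ± 0.08, adjusted p = 0.0233). The peptide transporter TAP1, which shares its promoter region with PSMB9, did not pass at either time (-0.14 and -0.05).

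Interferon-stimulated response elements are the known route to the immunoproteasome and PA28 genes, and their promoters are shown for that reason. The form GAAA, any 2 bases and GAAA again, on either strand, lay in a window of 7 of 41 members (17.1%) and of 4.38% of all 27305 genes, among them 0 of 9 that rose, 2 of 4 that fell and 5 of 26 that did not pass at 24 h of MMS. In 5 of the 7 the match had the identical letters GAAAGCGAAA, a form singled out after the matches were seen. This form is held by 34 of all 27305 genes (0.125%), again without regard to expression or base composition. The 5 stretches are given 5′ to 3′ on the strand of the match with 10 bases on either side and the match in capitals. They lie at chr6:32844032-32844061 (plus strand), chr16:67936852-67936881 (minus), chr6:3258904-3258933 (plus), chr14:24136189-24136218 (minus) and chr14:24146619-24146648 (minus), in GRCh38.p14.
PSMB8: aggaggaagtGAAAGCGAAAgccacagatc
PSMB10: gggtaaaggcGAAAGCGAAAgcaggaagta
PSMG4: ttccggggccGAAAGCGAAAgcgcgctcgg
PSME1: accgcgaaggGAAAGCGAAAgcggtagggc
PSME2: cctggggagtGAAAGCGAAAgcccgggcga
For PSMB10, which fell, the 250 bases before the start site (chr16:67936851-67937100, minus strand) hold the match, which begins 21 bases before that site.
PSMB10 upstream: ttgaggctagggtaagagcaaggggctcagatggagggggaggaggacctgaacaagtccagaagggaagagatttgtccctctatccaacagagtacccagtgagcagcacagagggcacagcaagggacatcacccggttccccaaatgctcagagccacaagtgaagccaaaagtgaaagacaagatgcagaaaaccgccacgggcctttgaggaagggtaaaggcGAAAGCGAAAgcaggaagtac
Of the 5 genes, PSMB10 and PSME1 fell with MMS at 24 h, and PSMB8, PSME2 and PSMG4 did not pass. PSMB9, which fell most, had no match to this form in its window.

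Sorafenib alone changed 0 of 45 members in edgeR at 8 h (1 higher and 1 lower at an unadjusted p under 0.05) and 0 at 24 h (2 lower), beside 0.394% and 0.817% of all genes called (at 24 h 0.244% higher and 0.574% lower). DESeq2 called 0 at 8 h and 1 at 24 h (1.38% and 2.24% of all genes), and so did the replicate block (5.03% and 7.18%). The gene was PSMD2, at 1065 and 1128 CPM in DMSO and 829 and 946 CPM with sorafenib at 24 h. Both sorafenib libraries lay below DMSO, and the change was -0.31 ± 0.09, adjusted p = 0.184 in the unblocked fit, -0.31 ± 0.08, adjusted p = 0.0166 with the block and -0.31 ± 0.09, adjusted p = 0.0341, in DESeq2. At 24 h with sorafenib, 37 of 45 members had a negative log2 change (median -0.08, beside 0.00 for all genes), and the 95% intervals of all members ran from -0.78 to 0.51. Both sorafenib libraries were below both DMSO libraries for 15 of 45 members, where 16.2% of all genes were, and above for 1, where 18.5% were. The highest value at 8 h was that of PSMB9 (0.46 ± 0.17, adjusted p = 0.445), whose sorafenib libraries exceeded DMSO at both times.

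After sorafenib and then MMS, 3 members rose and 0 fell against DMSO at 8 h, beside 12.5% and 11.8% of all genes (24.3% either way), and 8 rose and 2 fell at 24 h, beside 16.2% and 17.2% (33.4% either way). These comparisons share their DMSO libraries with those of MMS alone, so the values are given side by side only. The 8 h calls were PSMG3 (0.47 ± 0.13, adjusted p = 0.0193, beside 0.14 with MMS alone), PSMD9 (0.37 ± 0.11, adjusted p = 0.0259, beside 0.16) and PSMC2 (0.25 ± 0.06, adjusted p = 0.0116, beside 0.19). Without replicate 1 of the combination, 0 members passed: the change was 0.25 for PSMG3 (adjusted p = 0.216), 0.20 for PSMD9 (adjusted p = 0.26) and 0.22 for PSMC2 (adjusted p = 0.067), so that the first 2 moved by over 1.5 times and PSMC2 moved little. Without DMSO replicate 2 also 0 passed, and without DMSO replicate 1 there was 1. With the block, 6 passed at 8 h (5 higher, 1 lower), beside 39.5% of all genes, and PSMC6 (0.23 ± 0.08, adjusted p = 0.022), PSMD7 (0.20 ± 0.07, adjusted p = 0.0287) and PSMD2 (-0.24 ± 0.08, adjusted p = 0.0206) were those added. DESeq2 called 4, beside 26% of all genes. PSMD2 also passed in DESeq2 (-0.26, adjusted p = 0.0201), with RLE factors (-0.26, adjusted p = 0.0496) and with a mean count of at least 50 (-0.25, adjusted p = 0.038).

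At 24 h the genes that rose with the combination were PSME3 (0.62 ± 0.08, adjusted p = 0.000136), PSMD12 (0.59 ± 0.08, adjusted p = 0.00023), PSMD5 (0.51 ± 0.08, adjusted p = 0.000501), PSMD3 (0.47 ± 0.08, adjusted p = 0.00095), PSMD11 (0.39 ± 0.09, adjusted p = 0.00675), PSMD6 (0.33 ± 0.07, adjusted p = 0.0027), PSMC3 (0.30 ± 0.09, adjusted p = 0.026) and PSMC2 (0.21 ± 0.06, adjusted p = 0.0248). The genes that fell were PSMB9 (-0.54 ± 0.17, adjusted p = 0.0245) and PSMD10 (-0.41 ± 0.11, adjusted p = 0.011), where 16.2% of all genes rose and 17.2% fell. Thus 6 of 17 regulatory particle genes, 1 of 7 chaperones and 1 of 4 activators rose, and 0 of 14 core genes passed (0 at an unadjusted p under 0.05, 0 in DESeq2, with the block PSMA5 and PSMB2, and without DMSO replicate 1 PSMB2). The calls for PSME3, PSMD12, PSMD5, PSMD3, PSMD11 and PSMD6 were kept in each of the 10 alternatives. PSMB9 lost its call without combination replicate 1 (-0.42, adjusted p = 0.182), DMSO replicate 2 (-0.47, adjusted p = 0.138) or combination replicate 2 (-0.64, adjusted p = 0.0562). PSMD10 lost it without DMSO replicate 1 (-0.33, adjusted p = 0.0837) or combination replicate 2 (-0.33, adjusted p = 0.127), PSMC2 without DMSO replicate 1 (0.21, adjusted p = 0.0775), DMSO replicate 2 (0.21, adjusted p = 0.0727) or combination replicate 2 (0.19, adjusted p = 0.113), and PSMC3 without DMSO replicate 1 (0.29, adjusted p = 0.105), combination replicate 1 (0.34, adjusted p = 0.0662), DMSO replicate 2 (0.33, adjusted p = 0.0758) or combination replicate 2 (0.31, adjusted p = 0.0958). DESeq2 gave 11 calls, beside 34.7% of all genes. The block gave 18 calls (14 higher, 4 lower), beside 50.5% of all genes, among them PSMG1 (0.35 ± 0.07, adjusted p = 0.000682), PSME1 (-0.25 ± 0.07, adjusted p = 0.00573), PSMB10 (-0.48 ± 0.16, adjusted p = 0.0168), PSMG3 (0.31 ± 0.11, adjusted p = 0.0316), PSMC4 (0.22 ± 0.08, adjusted p = 0.0338) and PSMD8 (0.22 ± 0.08, adjusted p = 0.0318). Both combination libraries lay above both DMSO libraries for 26 of 45 members, where 37.9% of all genes did, and below for 4, where 28.4% did. At 8 h the counts were 15 and 3 of 45, beside 31.4% and 26.2% of all genes.

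Set directly against MMS alone, the combination differed in 0 of 45 members in edgeR at 8 h and in 0 at 24 h, beside 0.624% (0.222% higher, 0.401% lower) and 0.122% (0.0143% higher, 0.108% lower) of all genes. At an unadjusted p under 0.05 there were 7 members at 8 h (4 higher, 3 lower) and 1 at 24 h (higher). DESeq2 called 2 at 8 h (PSMB9 and PSMD2) and 0 at 24 h, beside 3.7% and 0.617% of all genes, and the block called 3 (PSMB9, PSMD2 and PSME4) and 0, beside 9.51% and 2.03%. PSMB9 was the largest of these, with 0.70 ± 0.17, adjusted p = 0.105 unblocked and 0.70 ± 0.15, adjusted p = 0.00686 with the block, and its combination libraries at 8 h were both above its MMS libraries. PSMD2 was at 1093 and 1082 CPM with MMS and 883 and 958 with the combination at 8 h, a change of -0.29 ± 0.08, adjusted p = 0.0264 with the block. PSME4 differed by -0.29 ± 0.08, adjusted p = 0.0299 in the same fit, with both combination libraries below both MMS libraries. Leaving out combination replicate 2 gave 2 calls at 8 h, PSMB8 (0.47, adjusted p = 0.0424) and PSMB9 (0.85, adjusted p = 0.0362). The test of the MMS effect with sorafenib against that without it, added after the data were seen, called 0 of 45 members at either time (1 and 2 at an unadjusted p under 0.05) and 0% of all genes. The combination had sorafenib for 12 h before MMS, while sorafenib alone is labelled 8 and 24 h. A longer time since sorafenib was added therefore cannot be told apart from the MMS effect in that test.

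The MMS effect at 24 h was then tested against that at 8 h. In edgeR 0 of 45 members passed, beside 9.13% of all genes, with 4 higher at an unadjusted p under 0.05. PSMD5 (0.37 ± 0.11, adjusted p = 0.0588) and PSME3 (0.38 ± 0.11, adjusted p = 0.0502) were nearest to the threshold. DESeq2 called these 2, beside 13.5% of all genes, and the block called 4 (PSMD5, PSME3, PSMG1 and PSMD11), beside 25.5%, all with a larger effect at 24 h. Both shares of members were below those of all genes. So a later effect passed only under these alternatives, RLE factors (PSME3), a filter on a mean count of at least 50 (PSMD5 and PSME3), or without DMSO 24 h replicate 1 (PSME3, 0.45) or MMS 24 h replicate 2 (PSMD5 0.49 and PSME3 0.49). In DMSO alone, 24 h against 8 h called 0 of 45 members, beside 0.66% of all genes, with 5 at an unadjusted p under 0.05 (4 higher, 1 lower). The block called PSMB4 (0.27 ± 0.08, adjusted p = 0.0324) and PSMB9 (0.54 ± 0.15, adjusted p = 0.0196) higher and PSMD12 (-0.27 ± 0.08, adjusted p = 0.0247) lower, and DESeq2 called PSMD12 (-0.27 in edgeR, adjusted p = 0.124). These fits called 13.6% and 4.61% of all genes.

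Of 11 other proteasome genes without the PSM prefixes, 5 rose and 0 fell with MMS at 8 h, beside 14.5% and 12% of all genes, and 1 rose and 0 fell at 24 h, beside 15.2% and 16.3%. The difference between the effects at 24 and 8 h passed for 0 of 11 in edgeR (2 lower at an unadjusted p under 0.05). AKIRIN2, which carries proteasomes into the nucleus, rose by 0.45 ± 0.10, adjusted p = 0.00421 at 8 h and was at 0.07 at 24 h. The proteasome-bound deubiquitinases UCHL5 (0.30 ± 0.09, adjusted p = 0.024) and USP14 (0.30 ± 0.09, adjusted p = 0.0272), the thioredoxin-like TXNL1 (0.31 ± 0.09, adjusted p = 0.0228) and the proteasome-binding ECM29 gene KIAA0368 (0.27 ± 0.09, adjusted p = 0.0358) rose as well. UCHL5 was the one that rose at 24 h (0.37 ± 0.09, adjusted p = 0.00682). POMP, the assembly factor of the core, and ADRM1, a ubiquitin receptor, did not pass at either time.

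Of 26 tested genes of the ubiquitin and NRF1 pathways, 14 rose and 1 fell with MMS at 8 h, beside 14.5% and 12% of all genes. At 24 h, 4 rose and 6 fell, beside 15.2% and 16.3%. Tested as the effect at 24 h minus that at 8 h, 8 of 26 were lower and 0 higher, where 5.6% and 3.53% of all genes were. The autophagy receptor SQSTM1 rose by 1.23 ± 0.11, adjusted p = 8.77e-06 at 8 h and was at 0.16 ± 0.10, adjusted p = 0.26 at 24 h. The proteasome-associated stress protein ZFAND2A (AIRAP) rose by 1.68 ± 0.16, adjusted p = 1.85e-05 and 0.94 ± 0.16, adjusted p = 0.00107. MAFG, a small MAF partner of NRF1 and NRF2, rose by 1.03 ± 0.10, adjusted p = 1.86e-05 at 8 h. NFE2L2, which encodes NRF2, rose by 0.68 ± 0.09, adjusted p = 0.00013 at 8 h and fell by 0.29 ± 0.09 at 24 h (adjusted p = 0.0233). NFE2L1, which encodes NRF1 and is controlled largely at the protein level, rose by 0.31 ± 0.08, adjusted p = 0.0137 at 8 h and was at -0.02 at 24 h.

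PSMC3IP, the recombination cofactor caught by the symbol rule, had the widest range of the 46 detected rows, with its highest group mean 2.65 times its lowest. At 8 h PSMC3IP stood at 19.6 and 18.0 CPM in DMSO, 34.1 and 33.7 with MMS, 17.3 and 17.1 with sorafenib and 38.1 and 35.4 with the combination. By 24 h PSMC3IP stood at 18.6 and 15.8 CPM in DMSO, 32.7 and 32.2 with MMS, 14.3 and 13.4 with sorafenib and 28.7 and 30.3 with the combination. MMS-exposed libraries exceeded the others at both times, with log2 changes for MMS of 0.89 ± 0.10, adjusted p = 8.17e-05 and 0.86 ± 0.11, adjusted p = 0.000155.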

How the data were processed

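RNA-seq read counts per gene were available for 16 libraries of MDA-MB-231 cells, 2 in each of 8 groups taken from the sample labels. The submitters' processing notes name CASAVA 1.8.2, TopHat2 2.0.8b, HTSeq and the hg19 build; the annotation, the HTSeq version and the strand setting are not given in the sources used here, so reads of a gene and an overlapping antisense gene cannot be told apart. The values are raw counts as deposited by the authors, whole numbers for 23228 gene rows and 5 counter rows, and the counter rows were left out of library sizes and tests. The reads counted as not unique were 29.5 to 31.5% and those outside any gene 6.88 to 7.94% of the reads listed in each file. Genes with close copies can lose reads for that reason.

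CPM was computed from the summed gene rows. Differences were tested with edgeR 4.0.16 (R 4.3.3, limma 3.58.1; TMM scaling, filterByExpr, 1 mean per group over all 16 libraries, quasi-likelihood test, 8 residual degrees of freedom) on 13948 genes, with the Benjamini-Hochberg adjustment over all of them in each of 10 comparisons and a threshold of 0.05. Alternatives were RLE factors, no filter (19083 genes), a mean count of at least 50 (11513 genes), DESeq2 1.42.0, a fit of the compared groups alone, omission of each library, and the title beginning as a block. A group left with 1 library is assumed to vary like the others. Libraries with the same title beginning deviated together in all 28 pairs of groups (r 0.489 to 0.707, median 0.638), and the labels do not say what the beginning marks. The series text describes the libraries of a group as separate experiments, and p-values measure the spread between these libraries alone. On simulated counts for MMS at 8 h (13787 genes), the fit recovered 35.8% of genes changed 1.5-fold, 76.1% changed 2-fold and 97% changed 4-fold. These shares rest on 67, 67 and 66 changed genes, all with a mean count of at least 50. The simulation gave 144 calls, where the data gave 3694. The Benjamini-Hochberg adjustment was therefore stricter there, and these shares do not give the power of the test on the data.

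Members and gene lists were chosen with earlier results of these data known. Values in every library are given for the 2 members of each class with the smallest p for MMS at 8 h and at 24 h. They are also given for all immunoproteasome, assembly and activator genes. For other pathway lists, values are given for some of the genes that passed with MMS at 8 or 24 h. Their number differs between lists. Genes of a pathway list named beyond these (TAP1, POMP, ADRM1, NFE2L1) and PSMD2 were chosen after their values were seen.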

Additional observations from a re-analysis of the deposited data

Results flagged for a closer look

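The effect of the combination at 24 h was tested against its effect at 8 h, a test added after the data were seen. It passed for 5 of 45 members in edgeR's quasi-likelihood test, a share close to the 10.8% of all genes, so the count is no result about the members. PSMB9 had a difference of effects of -0.80 ± 0.24, adjusted p = 0.049, from 0.26 at 8 h to -0.54 at 24 h. Its mean level went from 18.8 to 27.9 CPM in DMSO and from 22.7 to 19.8 CPM with the combination, so a rise in DMSO is part of that difference. The difference was 0.57 ± 0.11, adjusted p = 0.00841 for PSME3, 0.54 ± 0.13, adjusted p = 0.0224 for PSMD11, 0.48 ± 0.11, adjusted p = 0.0203 for PSMD12 and 0.44 ± 0.11, adjusted p = 0.0286 for PSMD5. These 4 were between -0.15 (PSMD11) and 0.11 (PSMD12) at 8 h, where none passed, and rose at 24 h. The same test for sorafenib alone passed for 0 of 45 members (0 at an unadjusted p under 0.05), and DESeq2 and the block were not run for it.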

How the results depend on the processing

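Of 31 member calls, each under 10 alternatives, 230 of 310 values stayed past the threshold, 80 did not and 0 changed sign, and 11 calls were kept throughout. With the title beginning as a replicate block, the number of members called was 10 for MMS at 8 h (4 without it), 21 at 24 h (14), 18 for the combination at 24 h (10), 6 for the combination at 8 h (3), 1 for sorafenib at 24 h (0), 3 for the combination against MMS at 8 h (0), 4 for the MMS effect at 24 h minus 8 h (0) and 3 for DMSO at 24 h against 8 h (0). It changed no other call than those given beside the results. DESeq2 called 1 member for sorafenib at 24 h, 2 for the combination against MMS at 8 h, 2 for the MMS effect over time and 1 for DMSO over time. RLE factors gave 2 for MMS at 8 h and 1 for the MMS effect over time, a mean count of at least 50 gave 2 and 2, and no filter gave 1 for MMS at 8 h. Fits of only the libraries compared, which have fewer residual degrees of freedom, gave 0 for MMS at 8 h, 7 at 24 h (14) and 0 for the combination at 8 h. For MMS at 24 h, PSMB10, PSMC3, PSMC4, PSMD6, PSMD8, PSMD11 and PSMG3 lost their calls in these fits. Leaving out 1 library gave 0 to 2 members for MMS at 8 h, 7 to 11 at 24 h, 0 to 4 for the combination at 8 h, 6 to 9 at 24 h, 0 to 2 for the combination against MMS at 8 h and 0 to 2 for the MMS effect over time. Over all genes the block called 6035 for MMS at 8 h (3694), 6730 at 24 h (4394), 5514 and 7043 for the combination at 8 and 24 h (3389 and 4663), 1001 for sorafenib at 24 h (114), 1326 for the combination against MMS at 8 h (87), 3562 for the MMS effect over time (1273) and 1902 for DMSO over time (92), and DESeq2 called 294, 366 and 531 for sorafenib at 24 h, the combination against MMS at 8 h and DMSO over time. TMM-scaled sizes moved the summed level to 8425 from 8455 CPM in DMSO at 24 h, to 8574 from 8217 with MMS at 8 h, to 9397 from 9776 with MMS at 24 h, to 8176 from 7958 with sorafenib at 8 h and to 9381 from 9759.7 with the combination at 24 h. The cause of these shifts was not tested. With 2 libraries a group, simulated data for MMS at 8 h recovered 35.8% of genes changed 1.5-fold, and smaller changes were not simulated. Far fewer genes changed in that simulation than were called in the data, so this share is not the power of the test on the data.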

Other observations

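Some members differed between the 2 libraries of a group in the same direction throughout. PSMG1, PSME1, PSMB3, PSMD10, PSMD14 and PSMG2 were higher in the library whose title begins with MDA231 in 8 of 8 groups, with median log2 differences of 0.23, 0.19, 0.18, 0.14, 0.12 and 0.09. What the title beginning marks is not stated in the labels.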
